A study of Mus musculus with 17 samples.

Results

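The 145 to 150 Mb window of mouse chromosome 4 (build mm10) held 447 of the 52360 accessible regions found in at least 2 of the 17 kidney libraries. The window was chosen because its regions were found more often in diabetic than in healthy mice, and its members were chosen by 1 rule. The 29702 highest-scoring summits of each library, which is the length of the shortest list, were each widened by 250 bp in both directions, overlapping stretches were merged, and regions in 2 or more libraries were kept. Summits of equal score were ranked by chromosome name and position, so that ranks within a tie are not an order of score. A summit is the base at which a called peak of accessibility is highest. A mouse had a member when 1 of those 29702 summits lay in it. Presence is the share of the mice of a group that had the member. A mouse without it had no summit there in the top of its list, which does not mean that the chromatin was closed. Members are numbered W001 to W447 along the chromosome. All differences between diabetic and healthy mice in the window are given as descriptions, with no test, because they chose it.

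The Ctrl group (n = 5) were wild-type C57BL/6 mice. The Case group (n = 6) were db/db mice of the strain BKS.Cg-Dock7m +/+ Leprdb/J, which lack the long leptin receptor and become obese and diabetic. The Dapa group (n = 6) were db/db mice of that strain given dapagliflozin, which blocks the kidney's sodium-glucose cotransporter SGLT2, by gavage at 1 mg/kg/day. All were males, 8 weeks old at the start, and were studied after 6 weeks of saline or drug, with 20000 cells per ATAC-seq library. The Ctrl mice differed from both db/db groups in genotype, in diabetes and in strain at once, and these cannot be told apart. The mutated gene, Lepr, lies on the same chromosome at 101717404 to 101815352, which is 43.2 Mb before the window.

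C2H2 zinc finger proteins are the largest family of DNA-binding proteins in mammals, and many of their genes sit in clusters that grew by repeated duplication of whole stretches of DNA. Members of the KRAB branch bind particular families of transposable elements and recruit KAP1, which silences them, and the clusters themselves are usually packed as heterochromatin. The distal part of mouse chromosome 4 holds one such cluster. Beyond it lies ordinary gene-rich sequence with the natriuretic peptide genes Nppa and Nppb, the kinase gene Mtor and the retrovirus restriction gene Fv1.

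The window had 3 stretches. The zinc finger block ran from the start of Zfp990 to the end of Zfp933 (chr4:145510759-147848366), held 18 protein-coding genes named Zfp and Rex2, and took up 46.8% of the window but 298 of its 447 members. The flank before it (Vps13d, Tnfrsf1b, Tnfrsf8) held 32 members, and the flank after it, from Miip and Fv1 to Spsb1, held 117. A member was counted as repeated when at least 50% of the 31-base words within 150 bp of its best summit occurred more than once in the genome. By that count 268 of 447 members (60.0%) were repeated, against 17.1% of all 52360 regions. In the block 256 of 298 members were repeated (85.9%), whereas in the flanks 12 of 149 were (8.05%).

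The sequences below are the plus strand of mm10 within 100 bp of the best summit, from the RefSeq assembly GRCm38.p6. They show the 8 members with the largest gain of presence in db/db mice, a copy of one of them, the member with the largest loss, and the one that differed most between Dapa and Case. Capitals mark bases covered by at least 1 word of 31 bases that is unique in the genome, and lower case marks bases found only in repeated words. W185 (chr4:146933213-146933413) and W123 (chr4:146291952-146292152) had the largest gains, and W047 (chr4:145594861-145595061) came next.
W185: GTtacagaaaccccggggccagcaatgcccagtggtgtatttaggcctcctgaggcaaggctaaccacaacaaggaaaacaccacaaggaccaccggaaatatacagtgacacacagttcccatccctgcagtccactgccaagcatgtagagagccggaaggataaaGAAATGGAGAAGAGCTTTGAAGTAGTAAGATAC
W123: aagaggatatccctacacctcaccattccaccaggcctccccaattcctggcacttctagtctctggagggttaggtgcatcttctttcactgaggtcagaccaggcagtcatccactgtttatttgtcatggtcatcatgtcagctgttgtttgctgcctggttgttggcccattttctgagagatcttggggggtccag
W047: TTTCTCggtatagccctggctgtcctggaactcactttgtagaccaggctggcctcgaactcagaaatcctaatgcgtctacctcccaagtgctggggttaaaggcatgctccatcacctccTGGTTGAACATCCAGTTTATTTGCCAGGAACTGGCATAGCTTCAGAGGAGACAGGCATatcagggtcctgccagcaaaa
W178 (chr4:146892845-146893045) and W268 (chr4:147416432-147416632) were gained members with mostly unique sequence near the summit, although W268 was just counted as repeated over the wider 301 bases (50.2%). W081 (chr4:145848719-145848919) had the same gain as W178 in almost wholly repeated sequence. W139 is shown only for the 55 bases (chr4:146515043-146515097) that lie outside the annotated first exon of Zfp981, the one named zinc finger gene whose start lay at a named gained member.
W178: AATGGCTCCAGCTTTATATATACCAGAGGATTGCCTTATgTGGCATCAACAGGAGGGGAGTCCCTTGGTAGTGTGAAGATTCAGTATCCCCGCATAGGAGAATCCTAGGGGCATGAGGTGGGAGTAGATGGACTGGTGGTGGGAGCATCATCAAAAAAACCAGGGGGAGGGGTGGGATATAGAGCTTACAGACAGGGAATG
W081: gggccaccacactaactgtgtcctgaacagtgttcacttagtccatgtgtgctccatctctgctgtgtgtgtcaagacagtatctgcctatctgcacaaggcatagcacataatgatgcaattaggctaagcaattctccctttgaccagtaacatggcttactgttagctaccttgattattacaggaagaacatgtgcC
W268: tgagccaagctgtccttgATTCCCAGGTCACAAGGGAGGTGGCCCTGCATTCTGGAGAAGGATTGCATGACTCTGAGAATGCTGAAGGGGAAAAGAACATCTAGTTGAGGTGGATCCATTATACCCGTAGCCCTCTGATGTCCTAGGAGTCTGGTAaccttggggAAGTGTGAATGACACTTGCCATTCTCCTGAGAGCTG
W139: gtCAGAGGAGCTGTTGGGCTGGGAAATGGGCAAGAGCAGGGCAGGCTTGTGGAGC
W147 (chr4:146567860-146568060) and W211 (chr4:147089749-147089949) were 2 copies of one sequence 521.9 kb apart, which differed at 1 of the 289 bases that could be set side by side. Neither had a single unique word.
W147: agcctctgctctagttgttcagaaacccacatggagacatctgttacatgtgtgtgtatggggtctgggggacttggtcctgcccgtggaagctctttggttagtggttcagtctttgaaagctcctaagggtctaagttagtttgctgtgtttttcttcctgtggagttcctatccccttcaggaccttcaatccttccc
W211: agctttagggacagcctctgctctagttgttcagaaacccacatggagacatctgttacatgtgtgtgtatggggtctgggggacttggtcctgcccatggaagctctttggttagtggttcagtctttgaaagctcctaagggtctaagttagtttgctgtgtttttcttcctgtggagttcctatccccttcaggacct
W411 (chr4:149407593-149407793), in an intron of Ube4b, was unique throughout and was lost. W181 (chr4:146902289-146902489) was the member with the smallest p between Dapa and Case.
W411: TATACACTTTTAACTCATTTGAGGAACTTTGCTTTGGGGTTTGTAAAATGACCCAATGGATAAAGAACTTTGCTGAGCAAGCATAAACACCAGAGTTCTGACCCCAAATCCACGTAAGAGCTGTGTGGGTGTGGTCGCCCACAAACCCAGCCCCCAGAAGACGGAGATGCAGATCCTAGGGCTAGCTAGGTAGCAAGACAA
W181: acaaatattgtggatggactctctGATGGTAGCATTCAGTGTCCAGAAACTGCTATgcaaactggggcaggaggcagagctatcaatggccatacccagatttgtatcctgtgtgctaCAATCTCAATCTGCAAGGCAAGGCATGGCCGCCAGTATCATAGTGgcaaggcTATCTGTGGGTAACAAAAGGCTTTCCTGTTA

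Presence was higher in db/db than in Ctrl mice over most of the block and, as a mean, not in the flanks. In Ctrl mice a block member was present in a mean share of 0.175 of the mice, in Case mice 0.382 and in Dapa mice 0.317. In the flanks the shares were 0.541 in Ctrl, 0.510 in Case and 0.519 in Dapa. The mean difference between db/db and Ctrl mice was 0.174 in the block and −0.0264 in the flanks, against −0.0480 over all regions. In bins of 250 kb, the 8 bins from 0.5 to 2.5 Mb into the window had differences from 0.155 to 0.236. The bin just before them, from 0.25 to 0.5 Mb, had a difference of 0.0324. The bin from 2.5 to 2.75 Mb, with Zfp985, Zfp979 and Zfp534, had a difference of 0.0955. In the next, where the block ends and which holds the starts of Zfp984, Zfp933, Miip, Fv1 and Mfn2, the difference was −0.0232. The shares in the 8 bins were 0.122 to 0.221 in Ctrl, 0.326 to 0.429 in Case and 0.254 to 0.394 in Dapa, so that in each bin both db/db groups lay above Ctrl.

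**Figure D1:**
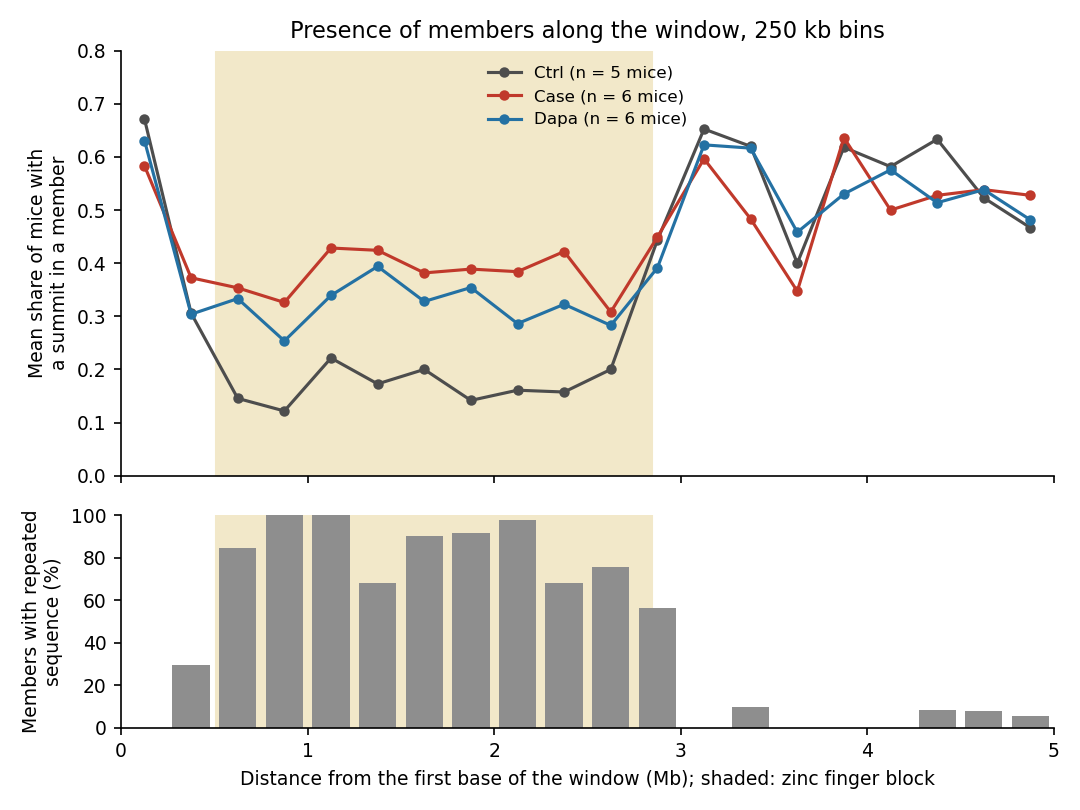
Upper panel, mean share of the mice of each group with a summit in a member, in 250 kb bins along the window (x axis, distance in Mb from its first base). Lower panel, percentage of members with repeated sequence. From 0.5 to 2.75 Mb, in the shaded zinc finger block, the Ctrl line lies between 0.122 and 0.221 and both db/db lines lie above it. In the bin in which the block ends, with 0.443 in Ctrl, 0.449 in Case and 0.391 in Dapa, and outside the block the 3 lines run close together or cross.

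Counted per mouse, block members with a summit numbered 46, 27, 28, 81 and 79 in Ctrl mice 1 to 5. Case mice ran from 67 to 158 with a median of 109.5, and Dapa mice from 57 to 122 with a median of 97. The means were 52.2 ± 26.5 (SD, n = 5), 114 ± 31.5 (SD, n = 6) and 94.5 ± 22.8 (SD, n = 6). Case 5 (67) and Dapa 11 (57) lay inside the Ctrl range, and the other 10 db/db mice lay above the highest Ctrl mouse. In the flanks the counts were 81, 80, 87, 75 and 80 in Ctrl, 62 to 88 with a median of 77.5 in Case, and 74 to 82 with a median of 77 in Dapa, so that the groups overlapped throughout. The block held 0.0976% to 0.330% of the summits of each Ctrl list, 0.246% to 0.680% of each Case list and 0.215% to 0.505% of each Dapa list.

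**Figure D2:**
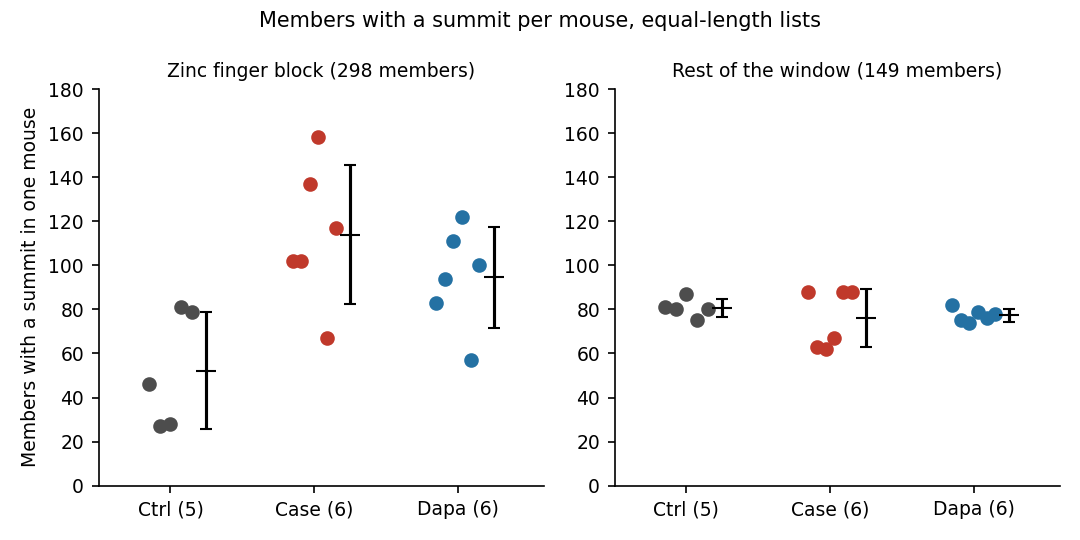
Members with a summit in each mouse (y axis, number) by group, in the zinc finger block (left) and in the rest of the window (right). Each point is 1 mouse and the bars give the mean ± SD. In the block 10 of 12 db/db mice lie above all Ctrl mice, and in the rest of the window the groups overlap.

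These counts moved with where each list ended. With equal length, the last summit used had a score of 3.91 to 5.53 in Ctrl mice, 2.01 to 5.20 in Case mice and 3.11 to 4.66 in Dapa mice, on the −log10 scale of the peak caller. Case 4, whose list ended at 2.01, had the most block members (158), and Ctrl 2, whose list ended at 5.53, had the fewest (27). Between them the order was not strict. Among the lists ending at 3.90 to 4.14, Ctrl 4 had 81, Ctrl 5 had 79, Dapa 8 had 94, Dapa 12 had 100 and Case 6 had 117. The part of the list end in the difference was not tested.

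The choice of summits set the size of the difference, and for the whole window its direction. With summits scoring at least 5 in every library, the block held 162 regions, of which Ctrl mice had 33, 37, 32, 38 and 49. Case mice had 51 ± 12.3 (SD, n = 6, 31 to 68) and Dapa mice 40.8 ± 8.21 (SD, n = 6, 31 to 55), so that all 3 groups overlapped. The mean difference in presence was then 0.0501 in the block, −0.117 in the flanks and −0.141 over all regions. With all summits of each list it was 0.0482 in the block, −0.0587 in the flanks and −0.0733 over all regions. With the top 14851 summits of each list it was 0.225, −0.0300 and −0.0247. The block thus stood above both the flanks and all regions in each of these settings. They re-use the lists that chose the window, so that the block's place carries that choice. Repeated and other regions were not set apart in these settings. The number of members per mouse over the whole window, higher in Case than in Ctrl by 57.0 in equal lists, was 2.57 lower at a score of at least 5. Read depth is unknown, and its part in the result was not tested.

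**Figure D3:**
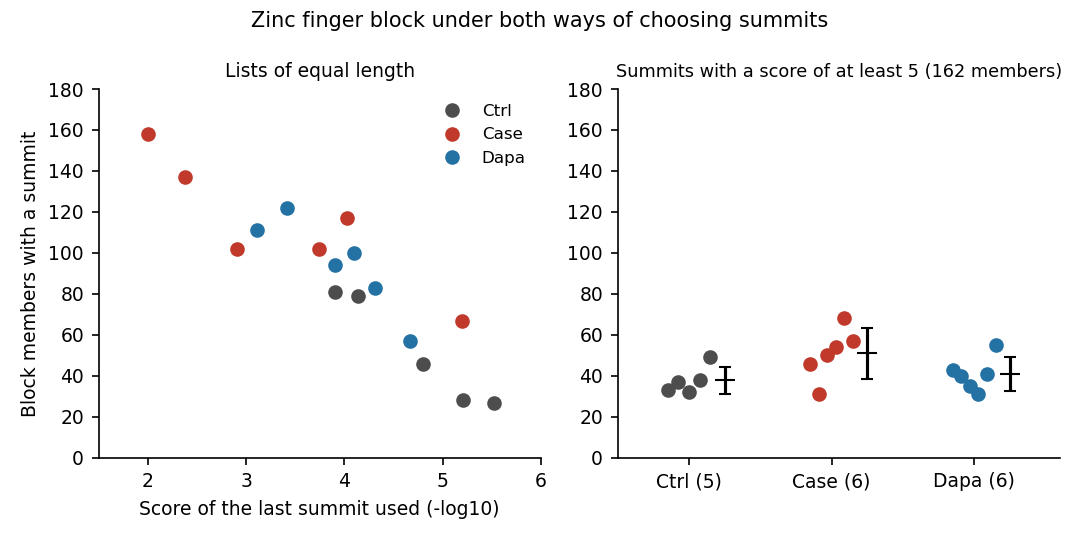
Left, block members with a summit in each mouse (y axis, number) against the score of the last summit used (x axis, −log10 scale) in lists of equal length. Right, block members by group when every list is kept to summits with a score of at least 5, with mean ± SD. On the left the list ending at the lowest score has the most block members and the list ending at the highest score the fewest. Between them there are exceptions to this order, such as Case 2 (2.90, 102 members) and Case 6 (4.03, 117 members). On the right the 3 groups overlap.

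Of the 447 members, 22 had a presence at least 0.5 higher in db/db than in Ctrl mice (4.92%, where 1.33% of all regions did) and 11 at least 0.5 lower (2.46%, where 6.61% did). The first count rested on single mice. It was 14 without Case 1 (1.15% of all regions) and 14 without Case 4 (1.25% of all), but 35 without Ctrl 4 (1.97% of all) and 36 without Ctrl 5 (1.96% of all), so that the share over all regions moved in the same direction. Set apart by treatment, 48 members were at least 0.5 higher in Case than in Ctrl (background 2.73%) and 27 in Dapa than in Ctrl (background 2.63%). At least 0.5 lower were 8 in Case (background 8.29%) and 9 in Dapa (background 6.17%). Both comparisons use the same Ctrl mice. In no Ctrl mouse were 174 members (38.9%, background 22.2%), and in no db/db mouse were 3 (0.671%, background 3.85%). All 17 mice had 26 members (5.82%, background 15%). These shares carry the choice of the window and nothing was read from them.

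The 22 gained members lay almost all in the block (20) and low in the lists, with a mean rank from 15091 to 25139 of 29702. Repeated sequence was counted in 17 of them. By position of the best summit, 13 were intronic, 5 intergenic, 3 at promoters (within 1 kb of a transcription start) and 1 in a noncoding exon. No equal-length Ctrl list held 18 of the 22, but the complete Ctrl lists held a summit in 16 of those 18. In 12 of the 22 more Case than Dapa mice had the summit, in 4 more Dapa mice did, and in 6 the numbers were equal.

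W185 (chr4:146932933-146933825) was the gained member with the largest difference and the lower mean rank of the pair that shared it. It lay 571 bp from a start of Gm20760, inside the long transcript Gm26573. No Ctrl mouse had it, while Case 1, 2, 4, 5 and 6 and Dapa 7, 8, 10 and 12 did, at ranks from 12323 to 27436. In complete lists 2 Ctrl mice had it too. W123 (chr4:146291617-146293065), in an intron of Gm26573, was in no Ctrl mouse, in Case 3, 4 and 6, and in all 6 Dapa mice, at ranks from 10577 to 27024. In complete lists 3 of 5 Ctrl mice and all 12 db/db mice had it.

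W047 (chr4:145594121-145595314), in an intron of the coding gene Gm13212, was in Ctrl 4, in all 6 Case mice and in all Dapa mice but Dapa 8. W268 (chr4:147416144-147417655) and W139 (chr4:146513150-146515247) were the only gained members present in all 12 db/db mice, and both were also in Ctrl 4 and Ctrl 5. W268 reached rank 4274, the highest among the 10 most gained members, and lay in an intron of the noncoding genes C230088H06Rik and Gm26624. W139 had its best summit 77 bp from a start of Zfp981, a gene of the KRAB zinc finger cluster. W147 (chr4:146566774-146569090) was in Ctrl 5, in all 6 Case mice and in Dapa 7, 9, 10 and 12. The Ctrl mice that had any of these 4 members were Ctrl 4 and Ctrl 5, whose lists ended at the lowest scores of their group.

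The other 4 of the 10 most gained members were in no equal-length Ctrl list. W178 (chr4:146892302-146893195), in an intron of the coding gene Gm21411, was in 5 Case and 3 Dapa mice and in 1 complete Ctrl list, and its share of repeated words was 42.4%. W081 (chr4:145848492-145849301), intergenic and nearest to Gm13246, was in 5 Case and 3 Dapa mice. W038 (chr4:145545601-145546904), also intergenic, was in 4 Case and 3 Dapa mice, and W236 (chr4:147235677-147236283), in an intron of Gm13147, in 3 and 4. Case 4 had all 10 of the most gained members, and Ctrl 1, 2 and 3 had none, as the plot of named members shows.

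**Figure D4:**
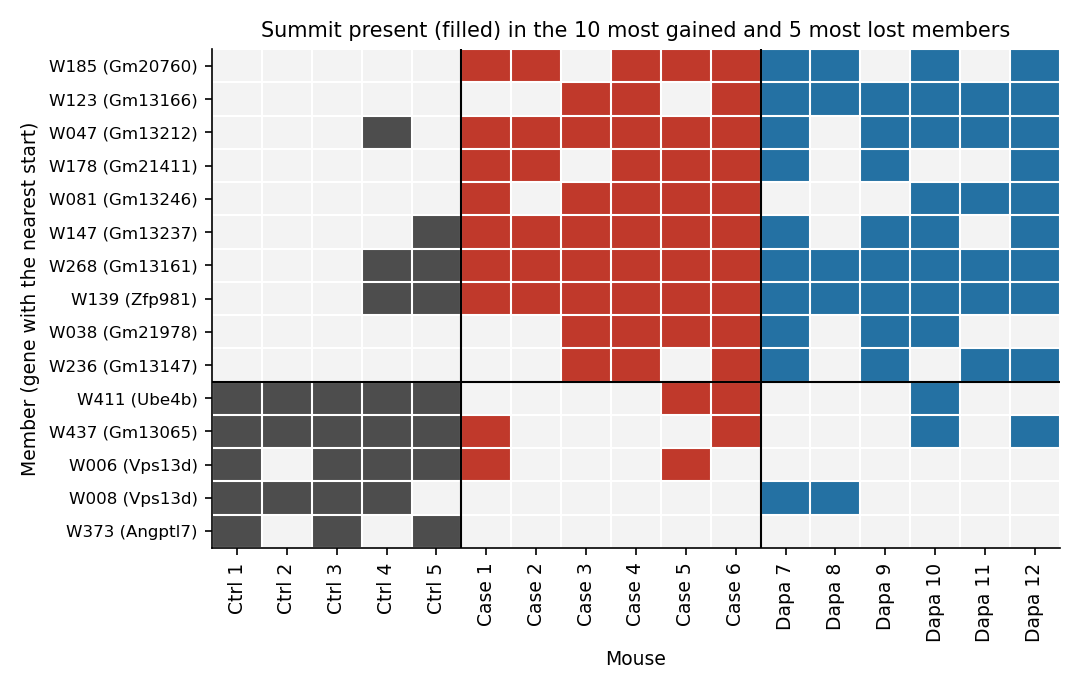
Presence (filled cell) of the 10 members with the largest gain and the 5 with the largest loss (rows, with the gene of the nearest start) in each of the 17 mice (columns, grey Ctrl, red Case, blue Dapa). The gained members are empty in Ctrl 1, 2 and 3, and the lost members are filled in most Ctrl mice.

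Of the 11 lost members 9 were not counted as repeated, 9 lay in the flanks, and 5 were at promoters and 5 in introns. W411 (chr4:149407353-149408030), in an intron of Ube4b, a ubiquitin ligase gene, was in all 5 Ctrl mice, in Case 5 and 6 and in Dapa 10. W437 (chr4:149792059-149792734), intergenic and 18102 bp from the nearest coding start (Slc25a33), was in all 5 Ctrl mice, 2 Case mice and 2 Dapa mice. Beside a start of Vps13d, which encodes a lipid transfer protein, W006 (chr4:145054231-145054812) was in 4 Ctrl, 2 Case and 0 Dapa mice. W008 (chr4:145155861-145156418), beside another Vps13d start, was in 4 Ctrl, 0 Case and 2 Dapa mice. W373 (chr4:148515172-148515717), in an intron of Mtor, was in Ctrl 1, 3 and 5 only, and no complete db/db list held it.

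Repeated sequence and place could be set side by side. In the block the mean difference between db/db and Ctrl was 0.169 over the 256 repeated members and 0.208 over the 42 that were not. The 42 had mean shares of 0.167 in Ctrl, 0.401 in Case and 0.349 in Dapa. Ctrl mice had 7, 4, 4, 10 and 10 of them, Case mice 11 to 24 with a median of 16.5, and Dapa mice 12 to 17 with a median of 14.5. All Ctrl mice thus lay below both db/db groups, whereas the Dapa range lay inside the Case range. Of the 42, 26 (61.9%) were in no Ctrl mouse and were kept only through db/db mice in a window chosen for their gain, so that this separation is largely fixed by the choice and nothing was read from it. Outside the window the difference was 0.0815 over 8691 repeated regions and −0.0756 over 43222 others. In the flanks it was 0.167 over 12 repeated members and −0.0433 over 137 others. The share of repeated regions among all regions of a mouse was 5.90% to 10.2% in Ctrl, 7.14% to 19.1% in Case and 7.41% to 14.3% in Dapa. The part of repeated reads in the block's difference was not tested.

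**Figure D5:**
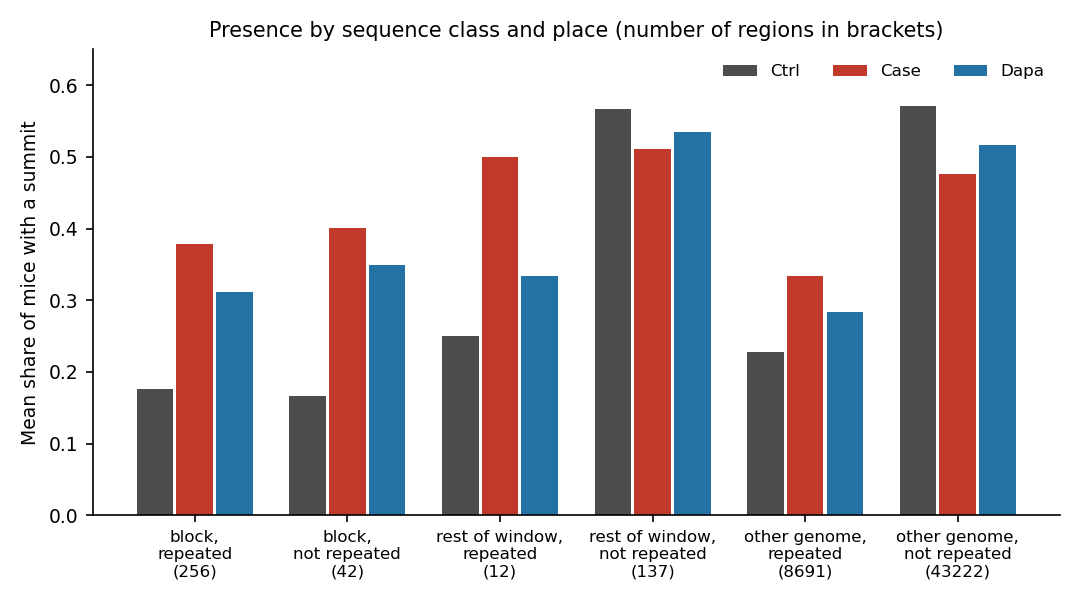
Mean share of the mice of each group with a summit (y axis) for members of the block and of the rest of the window and for all regions elsewhere, each split by repeated sequence, with the number of regions under each set of bars. In the block Case and Dapa stand above Ctrl in both classes. Elsewhere in the genome they do so in the repeated class, and in the other class Ctrl stands highest.

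Repeated words found 2 to 100 times in the genome were mostly local, and words found more often were not located. Of the other occurrences of these words, counted for each word and member, 64.4% lay in the window. Elsewhere on chromosome 4 lay 1.79%, and on other chromosomes 33.8%. Members differed in this. W185 had 711 such occurrences in the window and 67 on other chromosomes, whereas W047 had 217 and 863 and W268 had 0 and 221. Members that shared at least 50% of their words formed 25 families of 2 to 4 members, with 60 members in all. The 47 pairs of copies lay 168 to 2122 kb apart, and 32 ran in the same orientation. Compared without gaps, 21 pairs were identical over the bases that could be set side by side. A run of 7 pairs had a near-constant spacing of 861.7 to 865 kb and the same orientation, with its first copies around Zfp600 and its second copies around Zfp989, Rex2 and Zfp991.

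Copies did not always have the same mice. W147 was in 1 Ctrl, 6 Case and 4 Dapa mice, and its copy W211 in 0, 4 and 1. W057, in an intron of Zfp980, was in 1, 5 and 1, W103, in an intron of Zfp600, in 0, 4 and 2, and W254, of the same family and in an intron of Zfp978, in 1, 5 and 3. W068 and W119 were identical over all 301 bases and 488.9 kb apart, and were in 1, 2 and 2 and in 0, 0 and 3 mice. A read lying wholly within such a stretch matches both copies equally well, so that it does not tell presence at 1 copy from presence at the other. Whether the mates of paired reads, outside the stretch, could tell the copies apart was not tested.

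At gene starts the zinc finger genes were mostly outside the lists. The 18 Zfp genes and Rex2 were examined for summits no more than 1 kb from a transcription start. The share of mice with one was higher in db/db than in Ctrl for 11, lower for 3 and equal for 5, all of which had none (Zfp986, Zfp987, Zfp992, Zfp982 and Zfp534). A difference of any size was counted, and the share over all genes was not computed. The counts also carry the choice of the window, so that nothing was read from them. Averaged over the 19 genes, the share of mice came to 0.158 for Ctrl, 0.246 for Case and 0.193 for Dapa. Of the 11 that were higher, Zfp981 had the most db/db mice, with 1 Ctrl, 4 Case and 4 Dapa mice. Zfp990 had 0, 2 and 3, Zfp979 had 1, 3 and 2, and Zfp991 had 2, 4 and 3. Zfp600 had 0, 1 and 1 and Rex2 had 0, 1 and 0. Zfp993 went the other way with 2, 1 and 1.

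The starts of the last genes of the cluster were in the lists of most Ctrl mice. At Zfp984 the start was in the lists of 4 Ctrl, 3 Case and 3 Dapa mice. Zfp933 had one in all 5 Ctrl, 4 Case and 2 Dapa mice, with a median rank of 8858 in Ctrl, 14262.5 in Case and 24910.5 in Dapa over the complete lists that held one. Counting the whole gene and 2 kb upstream, the share of mice was higher in db/db for 15 of the 19 genes, lower for 2 (Zfp534 with 3 Ctrl, 3 Case and 2 Dapa mice, and Zfp933) and equal for 2. Small differences counted too, such as Zfp991 with 4 Ctrl, 5 Case and 5 Dapa mice. The share over all genes was not computed here either, and nothing was read from the count. Zfp981 had a summit in 2 of 5 Ctrl mice and all 12 db/db mice, and Zfp978 and Zfp980 in 3 of 5 and all 12. Zfp986 had one in 0 Ctrl, 4 Case and 0 Dapa mice.

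Of the 37 listed genes outside the cluster list, 22 had a summit at the start in all 17 mice and 4 had none in any mouse. Among 8 growth and mitochondrial genes, 6 had a summit at the start in all 17 mice, including Mtor, the kinase of the mTOR complexes, Pgd, of the pentose phosphate pathway, and Nmnat1, which makes NAD. Mfn2, needed for mitochondrial fusion, was missing in 1 Dapa mouse. Among 8 genes of RNA and protein turnover 7 were in all 17 mice, among them Tardbp, Srm, Ube4b and Fbxo2, and Exosc10 had 2, 3 and 4.

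Of 5 natriuretic peptide and blood pressure genes, Nppa, the gene of atrial natriuretic peptide, had no summit at its start in any list, complete lists included, and Nppb had 1 Ctrl, 1 Case and 1 Dapa mouse. Clcn6 was in all 17 mice, and Agtrap, whose product binds the angiotensin II type 1 receptor, was missing in 1 Case mouse. Of 5 TNF receptor and immune genes, Fv1 was in all 17 mice, at the start region it shares with Miip. Tnfrsf1b, which encodes TNF receptor 2, had 2 Ctrl, 3 Case and 1 Dapa mice, and Pik3cd had 3, 3 and 5. Tnfrsf8 and Masp2 had none at their starts. Of 11 other genes, 6 were in all 17 mice (Vps13d, Casz1, Ctnnbip1, Kif1b, Spsb1 and Lzic), none was higher in db/db, and 4 were lower, among them Angptl7 with 2, 0 and 1 and Clstn1 with 2, 0 and 1. Rbp7 had none. Dhrs3 lay before the window and was not counted.

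Dapa was compared with Case to ask whether the drug changed presence in db/db mice, and no member passed the test. With 6 mice against 6 the smallest possible p is 0.00216, so that after adjustment over all regions tested no single region could pass, however it differed, unless many others did too. Fisher's exact test, 2-sided, was run on the 7224 regions whose number of mice allowed a p under 0.05, with Benjamini-Hochberg adjustment over all of them, and 91 were members. At an adjusted p under 0.05 there were 0 members and 0 regions in all (background 0%). At an unadjusted p under 0.05 there were 0 members higher in Dapa (background 0.941%) and 1 lower (background 0.235%). That member, W181 (chr4:146901956-146902639), in an intron of Gm21411, was held by Ctrl 4 and by every Case mouse but Case 2, and no Dapa list held it (exact p = 0.0152, adjusted 1). In complete lists 1 Dapa mouse had it. Next among the tested came W057 (chr4:145683217-145683861), 1 of 4 members with 5 Case mice and 1 Dapa mouse (exact p = 0.0801, adjusted 1). W031 (chr4:145485595-145486881), intergenic, was in 4 Case and 0 Dapa mice and was not tested, since with 4 of 12 mice no p under 0.05 is possible. In the other direction W123 was in 3 Case and 6 Dapa mice, W005 (chr4:145034488-145035185, in an intron of Vps13d) also in 3 and 6, and W119 (chr4:146261842-146262457) in 0 and 3, and these were not tested for the same reason of too few or too many mice. Leaving out 1 mouse, the count at an unadjusted p under 0.05 was 4 without Dapa 9, 3 without Case 2, and 2 without Case 1, 3, 4 or 5 or Dapa 7. The count over all regions rose as well, from 85 of 7224 tested to 195 of 11033 without Dapa 9, to 154 of 10908 without Case 2, and to 146 to 269 in the other 5 settings. Per mouse, Case mice had 190 ± 26.0 members (SD, n = 6, 155 to 225) and Dapa mice 172 ± 22.9 (SD, n = 6, 133 to 201), a difference in means of −18.0 that was not tested, and the groups overlapped. The difference was 0 with all summits, −8.17 with the top 14851 and −7.33 with scores of at least 5, and leaving out 1 mouse gave −25.0 (without Case 5) to −10.2 (without Dapa 11). These values do not show that the groups were alike.

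Short motifs were counted on both strands of the 301 bases around the best summit, with N for any base. The TATA box TATAAA was in 73 of 447 members (16.3%) and in 8.33% of all regions, and its share was 19.8% in the block and 9.40% in the flanks. The GC box GGGCGG was in 14.3% of members and 24.3% of all regions, with 6.04% in the block and 30.9% in the flanks. The AP-1 site TGANTCA was in 10.3% of members (9.25% of all), and CCAAT in 35.6% (33.4% of all). The E-box CACGTG was in 4.03% (6.95%), the ETS site CCGGAAG in 3.80% (6.02%) and the YY1 site AAGATGGC in 2.46% (3.33%). The HNF4 site CAAAGTCCA was in 4 members (0.895%, against 2.12%), the HNF1 site GTTAATNAT in 3 (0.671%, against 2.82%), the NRF1 site GCGCATGCG in 2 (0.447%, against 0.926%) and the CRE TGACGTCA in none (1.12% of all). Over all 8959 repeated regions the TATA box was in 8.34%, the GC box in 8.29%, AP-1 in 6.15% and CCAAT in 37.4%. Of the same regions 3.43% had the E-box, 3.27% ETS, 7.30% YY1, 0.380% HNF4, 0.792% HNF1, 0.112% NRF1 and 0.246% the CRE. None of these words contains another. Each match is a word and not a binding site.

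Against other stretches of 5 Mb, of which 517 held at least 20 regions, the window came first by number of regions (447), by mean difference (0.107) and by number of regions at least 0.5 higher in db/db (22). Its neighbours from 140 to 145 Mb and from 150 to 155 Mb held 182 and 213 regions with mean differences of −0.00284 and 0.0214. Next by number of regions and by number at least 0.5 higher came chromosome 1 from 85 to 90 Mb, with 343 regions, 55.4% of them repeated, a mean difference of 0.0799 and 21 regions at least 0.5 higher. Chromosome 5 from 15 to 20 Mb had 10 of 140 regions at least 0.5 higher. As a share of its own regions the window (22 of 447) thus lay below both of these stretches. No test was made of these differences. The window was chosen for its gain in these same lists, so that its first places by mean difference and by gained regions carry that choice. Just inside the rule lay 99 members found in 2 libraries, with a median rank of 22024, and just outside it 340 regions of the window found in 1 library, with a median rank of 24074.5.

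Lists held 37402 to 56659 summits in Ctrl, 29702 to 51292 in Case and 32846 to 49442 in Dapa mice. The kidney label was checked on summits within 1 kb of the starts of 20 kidney epithelium genes. Each mouse had 11 to 15 of them, with 7 in all 17 mice (Lrp2, Slc12a3, Aqp1, Pax8, Hnf4a, Cdh16 and Kl). Slc12a1 and Aqp2 had none in any mouse. Of 20 leukocyte genes, Case 3 had 9 and Dapa 8 had 7, and the other mice had 1 to 4, with Ptprc and Cd4 in none. Case 3 also shared the fewest regions with the other lists (mean Jaccard index 0.300, the other mice 0.371 to 0.492). Without Case 3 and Dapa 8, which was added after seeing the data, 28 members were at least 0.5 higher in db/db (6.26%, where 1.95% of all regions were), 26 of them in the block, and the mean difference in the block was 0.167.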

How the data were processed

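ATAC-seq libraries of 17 mouse kidneys were used. The authors aligned the reads to mm10 with Bowtie2 by the ENCODE ATAC-seq pipeline, took out duplicates and reads in the blacklist, shifted the rest and called peaks in each library with MACS2. Versions, and how reads with several equal matches were placed, were not given in the sources used here. The deposited files list each summit with a score, the −log10 of a p-value or q-value as MACS writes it. No read counts were used, so that read depth is not known here and there is no interval for counting error.

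Regions were built in Python 3.11.15 with numpy 2.4.6 and pandas 2.3.3, words were counted with numba 0.67.0 and Fisher's exact test came from SciPy 1.17.1. The members and lists were chosen with earlier results of these data known. Annotation was GENCODE M21. The functions were tested on simulated lists. Named members were the 10 with the largest and the 5 with the most negative difference, ties by mean rank, and up to 3 in each direction between Dapa and Case. Listed genes were named, except some that are not reported here. Mice were taken as replicates, and nothing states litters or batches. The alternatives were all summits, lists of 14851 summits, scores of at least 5, extensions of 100 and 500 bp, at least 3 libraries, a difference of 0.67, all regions tested, words of 50 bases, whole regions, same-numbered mice as pairs and each mouse left out. No pair of the 136 pairs of lists was identical. Chromosome 4 summits ended at 156357899, within the 156508116 bases of that chromosome in GRCm38.p6.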

Additional observations from a re-analysis of the deposited data

Results flagged for a closer look

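Case 3 had summits at the starts of 9 of the 20 leukocyte genes, where the next highest Case mouse had 2, a gap of 0.875 of the group's range. It was the only such value in 33 sets of mice examined, and chance gives about 1 in 20. Without Case 3, 15 members in place of 22 were at least 0.5 higher in db/db (3.36%, where 1.35% of all regions were).

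Regions of the window found in 1 library only, which no comparison used, numbered 23.8 per db/db mouse on average and 10.8 per Ctrl mouse. The Ctrl mice had 7, 2, 6, 16 and 23 of them, the Case mice 4 to 41 and the Dapa mice 6 to 33, so that the groups overlapped. No test was made, since the window was chosen on the same lists.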

How the results depend on the processing

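Over all summits 13 of 654 members (1.99%, all regions 0.568%) were at least 0.5 higher in db/db, 12 of them in the block, and 13 lower (5266 of 79899 regions), in place of 22 of 447 (4.92%, all regions 1.33%) with 20 in the block and 11 lower (3462 of 52360 regions), and the mean number of members per mouse was higher by 9.40 in Case and by 9.40 in Dapa than in Ctrl. With lists of 14851 summits 8 of 141 (5.67%, all regions 2.38%) were higher, 6 of them in the block, 5 were lower (1452 of 26213 regions), and the means differed by 15.1 and 6.97. With scores of at least 5, 3 of 285 (1.05%, all regions 0.567%) were higher, all 3 in the block, 16 were lower (4454 of 40551 regions), and the means turned to −2.57 for Case and −9.90 for Dapa against Ctrl (57.0 and 39.0 in equal lists). With a difference of 0.67, 3 (0.671%, all regions 0.128%) were higher, all 3 in the block, and 1 was lower (899 of 52360 regions). The causes were not tested, except that fewer summits enter shorter lists. At an unadjusted p under 0.05, Dapa against Case, the 1 member (85 of 7224 regions) became 0 with lists of 14851 summits (52 of 4377), 0 with scores of at least 5 (45 of 6327), 2 with extensions of 100 bp (91 of 8076) and 3 without Case 3 and Dapa 8 (305 of 8456), the last chosen after seeing the data. Words of 50 bases gave 49.2% of members with repeated sequence, against 14.9% of all regions.

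Leaving out 1 mouse gave 14 to 36 members higher (13 to 33 in the block, 601 to 1033 over all regions), 10 to 15 lower (3187 to 5299 over all regions), differences in mean members of 50 to 64 for Case minus Ctrl, 32.6 to 46.8 for Dapa minus Ctrl and −25.0 to −10.2 for Dapa minus Case, and 1 to 4 members at an unadjusted p under 0.05 and 0 at an adjusted p under 0.05. The mice that moved the first count by over 1.5 times were Ctrl 4 (35), Ctrl 5 (36), Case 1 (14) and Case 4 (14). With same-numbered Ctrl and Case mice as pairs (replicate block), the mean difference was 54.0. The numbers mark no shared animal or batch, and the correlations of deviations within pairs ran from −0.0516 to 0.00765. Dapa and Case share no numbers.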
